A study of Mus musculus with 6 samples.

Results

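The zona pellucida and sperm-binding genes are the genes of the egg coat and egg surface that sperm meet at fertilization. The 7 members, Zp1, Zp2, Zp3, Astl, Cd9, Cd81 and Folr4, were taken by name from the 23259 gene names of the table, with 1 row per name. The zona pellucida is a matrix of glycoproteins that the growing oocyte secretes around itself. ZP1 crosslinks filaments that ZP2 and ZP3 build, and sperm bind the matrix at ZP2. After fertilization the egg releases ovastacin, the protease encoded by Astl, from its cortical granules. Ovastacin cleaves ZP2, after which further sperm no longer bind. Folr4 is an older symbol of Izumo1r, the gene of JUNO, the egg receptor that binds IZUMO1 on sperm and is held in the membrane by a glycosylphosphatidylinositol (GPI) anchor. CD9 and CD81 are tetraspanins, membrane proteins with 4 spanning segments, and CD9 on the egg is needed for fusion with sperm. The mRNAs of these proteins are made in the growing oocyte, and maternal mRNA of this kind is degraded around the time the embryonic genome is activated.

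RNA of mouse embryos was labelled with 4-thiouridine, a uridine analogue that is built into RNA made during the labelling and reads as a T-to-C mismatch after alkylation. Per the labels, there were 3 groups with 2 samples each, namely wild-type (WT) zygotes, zygotes with the genotype Pabpn1l-null, and WT 2-cell embryos, each sample pooling 50 embryos that had spent 2 h in label at 200 μM, beginning 26 h after the females received hCG. PABPN1L binds poly(A) tails and takes part in the decay of mRNA that the oocyte stored. The protocol text speaks of zygotes for all samples. The sources used here do not give when the 2-cell embryos were collected, the strain, the age of the females, the deleted part of Pabpn1l, or whether mother, embryo or both carried it. The table holds 1 column of total reads and 1 of T-to-C reads per group, so no difference has a replicate check, and each test compares sets of libraries, not conditions.

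The columns held 3001472, 1270347 and 4020444 reads on named genes in wild-type zygotes, null zygotes and 2-cell embryos, of which 3.03%, 3.86% and 4.54% were T-to-C reads. No unlabelled embryos are among the groups, so the share that error alone would give is not known. Pabpn1l itself had 47, 4 and 14 reads in the same order, a null-to-WT ratio of 0.193 with an upper end of 2.25. Where another column predicted 3 to 5 reads, more genes were at 0 than the 2.05% to 2.58% of independent reads, namely 58.3% in the null column predicted from wild-type zygotes, 40.2% in the 2-cell column predicted from wild-type zygotes and 36.0% in wild-type zygotes predicted from the 2-cell column. Such zeros also come from real differences between the groups, and the cause was not tested. Exactly 1 read was counted for 977 genes in wild-type zygotes, 184 in null zygotes and 545 at the 2-cell stage. For the tests and for all 95% intervals, which cover counting error only, groups of 7 reads stood for single molecules, also in the WT columns, where calls are therefore fewer than reads alone would give. In total RNA scaled to column size, a lower level of a gene in an embryo and a higher level of the others cannot be told apart. Marker lists covered oocytes and early embryos, cumulus and granulosa cells, sperm and blood cells, with no list for the 2-cell stage alone. All 11 oocyte and early embryo markers in the table had reads in every column, 14518 per 1000000 reads in wild-type zygotes, 18200 in null zygotes and 3472 at the 2-cell stage. Of these markers, 9 were called lower at the 2-cell stage, as Folr4 was, beside 15.9% of all genes tested. In null zygotes 4 were called higher, beside 0.684% of all genes, with a median log2 ratio of 0.51 beside -0.15. Zp2 and Zp3 had higher values there as well but were not called. The 20 cumulus and granulosa markers summed to 271, 68 and 361 reads, with 12, 17 and 11 of them at 0. Of these reads 134, 41 and 241 were of Nr5a2, which early embryos also express, and 80, 23 and 0 of the aromatase gene Cyp19a1, called lower at the 2-cell stage. There were 10, 0 and 39 reads of the 12 sperm markers, and 51, 1 and 63 of the 8 blood cell markers. What part such cells had in the results was not tested.

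For 5 of the members RefSeq gave promoters on GRCm38, running from 250 bases before to 50 after a transcript start. Those of Zp3, Astl and Folr4 are shown because the results on newly made and stored RNA below concern these genes, and Zp3 stands for the zona genes, whose transcription in oocytes is driven by FIGLA through an E-box. They are printed 5′ to 3′ on the gene's strand, and capitals mark the E-box CANNTG and the TATAA motif, both searched on both strands.
Zp3, chr5:135979855-135980154, plus strand: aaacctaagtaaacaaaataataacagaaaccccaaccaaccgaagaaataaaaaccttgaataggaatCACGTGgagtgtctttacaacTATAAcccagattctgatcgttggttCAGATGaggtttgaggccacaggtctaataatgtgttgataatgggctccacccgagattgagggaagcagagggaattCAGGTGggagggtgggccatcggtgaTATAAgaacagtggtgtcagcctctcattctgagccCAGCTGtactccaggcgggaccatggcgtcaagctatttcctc
Astl upstream start, chr2:127338389-127338688, plus strand: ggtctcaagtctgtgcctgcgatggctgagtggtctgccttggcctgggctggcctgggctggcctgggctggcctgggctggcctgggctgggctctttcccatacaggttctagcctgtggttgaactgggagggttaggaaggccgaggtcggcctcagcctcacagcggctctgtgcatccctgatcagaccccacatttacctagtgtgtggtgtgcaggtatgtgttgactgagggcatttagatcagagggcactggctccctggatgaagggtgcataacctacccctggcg
Astl downstream start, chr2:127341386-127341685, plus strand: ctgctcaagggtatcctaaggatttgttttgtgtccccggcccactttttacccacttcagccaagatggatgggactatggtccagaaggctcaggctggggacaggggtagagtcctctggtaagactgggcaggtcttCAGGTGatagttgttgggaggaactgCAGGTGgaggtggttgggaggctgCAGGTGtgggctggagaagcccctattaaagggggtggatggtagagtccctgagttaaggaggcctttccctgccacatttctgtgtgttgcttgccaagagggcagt
Folr4 (Izumo1r), chr9:14903718-14904017, minus strand: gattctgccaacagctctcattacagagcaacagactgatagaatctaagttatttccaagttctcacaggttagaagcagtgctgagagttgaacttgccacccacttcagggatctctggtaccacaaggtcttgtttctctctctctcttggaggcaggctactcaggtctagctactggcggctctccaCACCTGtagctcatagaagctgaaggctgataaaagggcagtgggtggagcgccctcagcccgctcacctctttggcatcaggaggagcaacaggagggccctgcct
The Zp3 promoter held 4 E-boxes, which begin 181, 134 and 55 bases before the start and 7 after it, and TATAA began 29 and 160 bases before it. The E-box farthest from the start reads CACGTG, a form found in 7.15% of all 32851 promoters. The downstream Astl start had 3 E-boxes, at 109, 83 and 59 bases before it, whereas the upstream start had none. The Folr4 promoter had 1 E-box, 57 bases before the start, with no TATAA. Promoters of Cd9 and Cd81 held 3 and 1 E-boxes. At least 1 E-box lies in 72.3% of all promoters of this length and TATAA in 24.9%, so these matches are a description of the sequences only. The table counts reads per gene and does not separate the Astl starts.

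The zona matrix genes had few reads, and the values of Zp2 and Zp3 were 2.70 and 2.35 times those of wild-type zygotes in Pabpn1l-null zygotes, without passing the test. Zp2, on chromosome 7 at 120126762 to 120145291, encodes the protein that sperm bind and ovastacin cleaves. It had 78 reads in wild-type zygotes, 93 in null zygotes and 43 at the 2-cell stage, or 26.1, 70.4 and 11.1 RPM (reads per 1000000 reads on named genes, with column sizes scaled by TMM factors). The null column was highest and the 2-cell column lowest. The null-to-WT ratio of Zp2 was 2.70 (95% interval 1.13 to 6.60) and the 2-cell-to-WT ratio 0.426 (0.131 to 1.24). Zp3, on chromosome 5 at 135980105 to 135988624, encodes the partner of ZP2 in the filaments. Its 51, 53 and 57 reads amounted to 17.0, 40.1 and 14.7 RPM, so that the counts were alike and the scaled level was highest in the shallower null column. The Zp3 ratios were 2.35 (0.736 to 7.58) in null zygotes and 0.863 (0.278 to 2.73) at the 2-cell stage, or 1.04 there with RLE factors. Zp1, the crosslinker gene on chromosome 19 at 10914296 to 10920601, had 9, 22 and 21 reads. These lie below or about the 21 reads that a count of 0 was taken to allow, so no ratio is given. Summed over the zona genes, 138 reads in WT and 168 in null zygotes gave a ratio of 2.76 (1.46 to 5.28), and 121 reads in 2-cell embryos gave 0.677 (0.334 to 1.36). The sum was taken after the values were seen and includes the few reads of Zp1, so its intervals do not test a difference.

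None of the zona genes was called in either comparison of total reads. A gene was called at a Benjamini-Hochberg adjusted p under 0.05 over all genes, by an exact conditional binomial test on molecules, together with at least a 2-fold difference. In null against wild-type zygotes 1.36% of 11262 genes tested were called and 0 of the 6 members tested, and 12.5% of these genes had a ratio of at least 2, as Zp2 and Zp3 did. With every read counted as 1 molecule, all 3 zona genes were called higher in null zygotes. The lower ends were 1.98 for Zp2 and 1.57 for Zp3. However, 1132 of 11262 genes tested were then called higher and 1552 lower, 2684 in all. None of the 3 zona genes was called when reads of the null column alone were grouped by 7. The 3 zona genes were hardly seen among T-to-C reads. Zp1 had 0 in each column. Zp2 had 2, 1 and 0, and Zp3 had 0, 4 and 0. For Zp3 in 2-cell embryos, 0 T-to-C reads allow a share of up to 36.8%, so a labelled share like the 2.09% that was the median of well covered genes was not detectable at this depth.

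**Figure D1:**
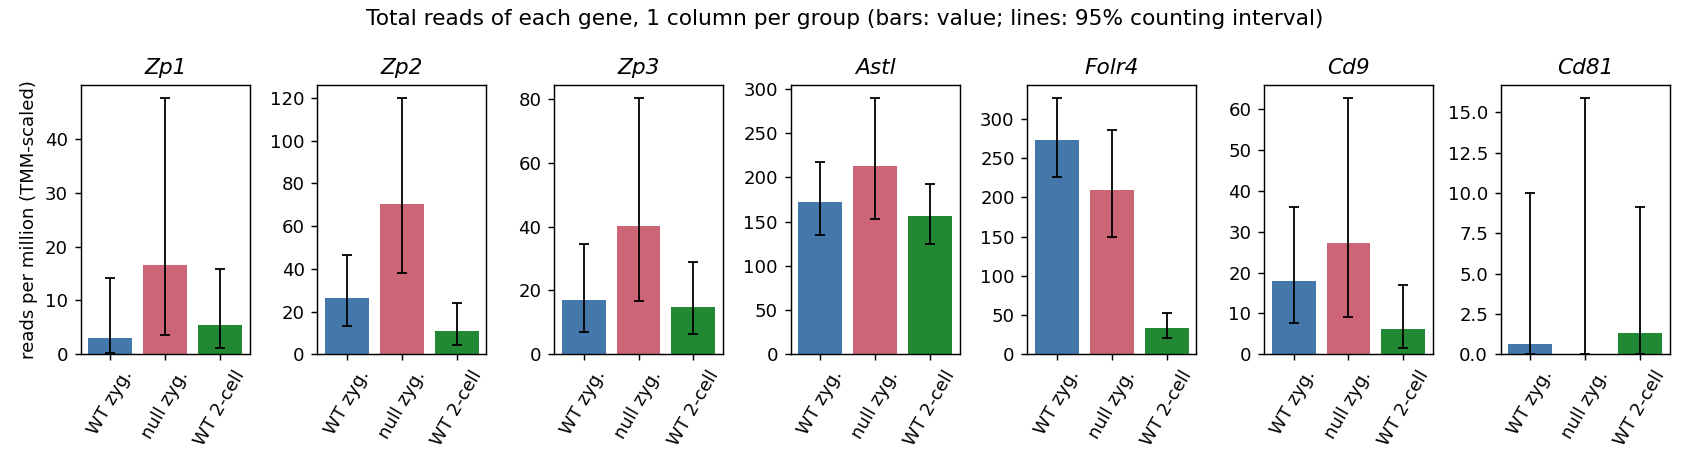
Total reads in RPM (reads per 1000000 reads on named genes, scaled by TMM factors) for each gene (panels, each with its own axis from 0) in wild-type zygotes, Pabpn1l-null zygotes and WT 2-cell embryos. Bars are the single value of each group and lines the 95% counting interval, or for Cd81 in null zygotes, at 0, the level that 3 molecules would give. Zp2 and Zp3 are highest in null zygotes, with intervals that overlap those of wild-type zygotes. The reads of Zp1 lie below or about what a count of 0 was taken to allow. Folr4 in 2-cell embryos (33.8) lies below both zygote columns (273 and 210).

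Astl, the ovastacin gene, had a labelled share of 21.0% at the 2-cell stage and 1.94% in wild-type zygotes, while its total reads were not called different. The gene lies on chromosome 2 at 127338639 to 127357655 and had 516 reads in wild-type zygotes, 282 in null zygotes and 606 at the 2-cell stage, or 172, 213 and 156 RPM. The 2-cell-to-WT ratio of total reads was 0.907 (0.657 to 1.25) and the null-to-WT ratio 1.24 (0.821 to 1.84), and neither was called. With RLE factors, which raise the median log2 ratio of all genes in 2-cell embryos from 0.04 to 0.28, the 2-cell ratio was 1.09.

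Of the Astl reads, 10 were T-to-C reads in wild-type zygotes, 11 in null zygotes and 127 at the 2-cell stage. The share was 1.94% (0.126 to 8.27) in wild-type zygotes, 3.90% (0.310 to 15.3) in null zygotes and 21.0% (12.9 to 31.0) at the 2-cell stage. The interval of the 2-cell embryos does not overlap that of the wild-type zygotes. The share was called higher in 2-cell embryos by Fisher's exact test, with a ratio of 10.8, where 1.90% of 6909 genes tested were called. The call held under all 5 alternatives that bear on it. The ratio itself has no interval and is imprecise, because its 10 T-to-C reads in wild-type zygotes are fewer than the 21 that a count of 0 was taken to allow. Among 3410 genes with at least 200 reads in 2-cell embryos the median share was 2.09%, and Astl was among the 131 genes (3.84%) with a share as high as its own or higher. In wild-type zygotes, by contrast, 58.2% of 2901 such genes had a share at least as high. Reads of Astl without the mismatch numbered 506 in wild-type zygotes and 479 in 2-cell embryos, a scaled ratio of 0.731 (0.517 to 1.03).

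Astl was also called higher at the 2-cell stage by its number of T-to-C reads, with a ratio of 9.80 (1.94 to 161), where 5.74% of 4376 genes tested were called, 183 higher and 68 lower. This call was lost with no filter on low counts, and with T-to-C reads scaled by their own column total, where the ratio was 6.33 (1.25 to 104) and 96 genes were higher and 101 lower. The null-to-WT ratio of 2.49 (0.107 to 66.6) was not called. Nor was that of the share, 2.01, in a comparison where 0% of 5999 genes were called. In null against wild-type zygotes 0.0457% of genes were called in T-to-C reads. The authors' deposited table marks Astl as Positive in 2-cell embryos and Negative in both zygote columns. It marks the other 6 genes as Negative in every column, with 2.85%, 4.26% and 5.83% of all genes Positive in wild-type zygotes, null zygotes and 2-cell embryos. Of 127 genes with a higher share at the 2-cell stage, 75 were, like Astl, not called in total reads, 36 were lower and 16 higher.

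The genes next to Astl were low in zygotes. Dusp2, a phosphatase gene that ends 262 bases before Astl, had 6, 5 and 20 reads, of which 0, 0 and 3 were T-to-C reads. Adra2b, an adrenergic receptor gene 5524 bases beyond Astl, had 7, 0 and 73 reads, of which 0, 0 and 18 (24.7%) were T-to-C reads. Its 2-cell-to-WT ratio was 8.05 (1.16 to 348) and not called. The labelled share of Adra2b at the 2-cell stage had a value near the 21.0% of Astl, on fewer reads. The Adra2b value is imprecise, because its 18 T-to-C reads are fewer than the 21 that a count of 0 was taken to allow. No test compared the shares of these genes. No RefSeq gene overlaps Astl.

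**Figure D2:**
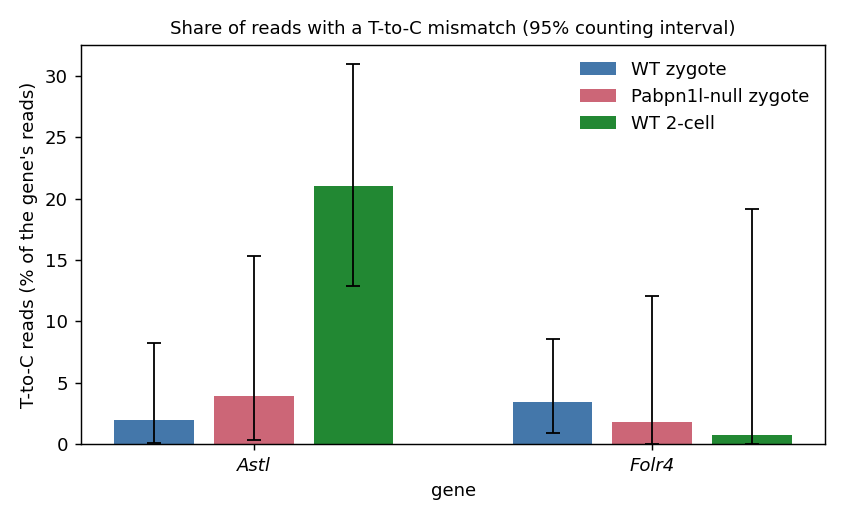
T-to-C share, in percent of the gene's reads, for Astl and Folr4 in wild-type zygotes, Pabpn1l-null zygotes and WT 2-cell embryos. Bars are the single value of each group and lines the 95% Clopper-Pearson interval on molecules. The Astl share of 21.0% in 2-cell embryos lies above the interval of wild-type zygotes, which ends at 8.27%, and the 3 intervals of Folr4 overlap.

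Folr4, the JUNO gene on chromosome 9 at 14885814 to 14903951, fell by the 2-cell stage. It had 817 reads in wild-type zygotes, 277 in null zygotes and 131 at the 2-cell stage, or 273, 210 and 33.8 RPM. Both zygote columns lay far above the 2-cell column and close to each other. The 2-cell-to-WT ratio was 0.124 (0.0717 to 0.203), which is 8.08-fold lower, and was the only call among the 6 members tested in total reads, where 32.4% of 11262 genes were called. The call held under all 8 alternatives, with ratios from 0.12 to 0.149. In null zygotes the ratio was 0.767 (0.521 to 1.11), not called. That value lay below 1, whereas those of Zp2 and Zp3 lay above it, and this difference between genes was not tested.

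Folr4 had 28 T-to-C reads in wild-type zygotes, 5 in null zygotes and 1 at the 2-cell stage. The shares were 3.43% (0.942 to 8.54), 1.81% (0.0127 to 12.1) and 0.763% (upper end 19.2), and these intervals overlap. The 2-cell-to-WT ratio of T-to-C reads was 0.0276 (upper end 1.29) and not called. With every read counted as 1 molecule it was called lower, with an upper end of 0.167. With edgeR's exact test at an assumed variation of 0.4 the ratio was 0.0313 and called. These settings called 832 and 272 of 4376 genes lower. Folr4 passed the filter of 10 T-to-C reads only through wild-type zygotes, its highest column, which favours a lower value elsewhere. The share of Folr4 was not called in either comparison.

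The tetraspanin genes were scarce. Cd9, on chromosome 6 at 125460266 to 125494760, had 54 reads in wild-type zygotes, 36 in null zygotes and 24 at the 2-cell stage, or 18.0, 27.2 and 6.19 RPM. The 2-cell-to-WT ratio was 0.343 (0.0661 to 1.37) and the null-to-WT ratio 1.51 (0.392 to 5.26), and only 1 T-to-C read was counted, in wild-type zygotes. The Cd9 ratio at the 2-cell stage, like that of Zp2, was called lower once every read of the WT columns counted as 1 molecule, with upper ends of 0.565 for Cd9 and 0.625 for Zp2. However, 3200 of 11262 genes tested were then called lower and 3462 higher. Cd81, on chromosome 7 at 143052750 to 143067930, had 2, 0 and 5 reads, all under that limit of 21 reads, so no ratio is given either. RefSeq places the non-coding genes Gm28809 and Gm26728 over Cd9 and R74862 over Cd81. R74862 had 0 reads, and the table does not list the other two. Whether the counting used strand is not stated in the sources used here, so reads of Cd9 and of such genes cannot be told apart. Both tetraspanins are also made by somatic cells, whose markers are given above, and their part in these reads was not tested.

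**Figure D3:**
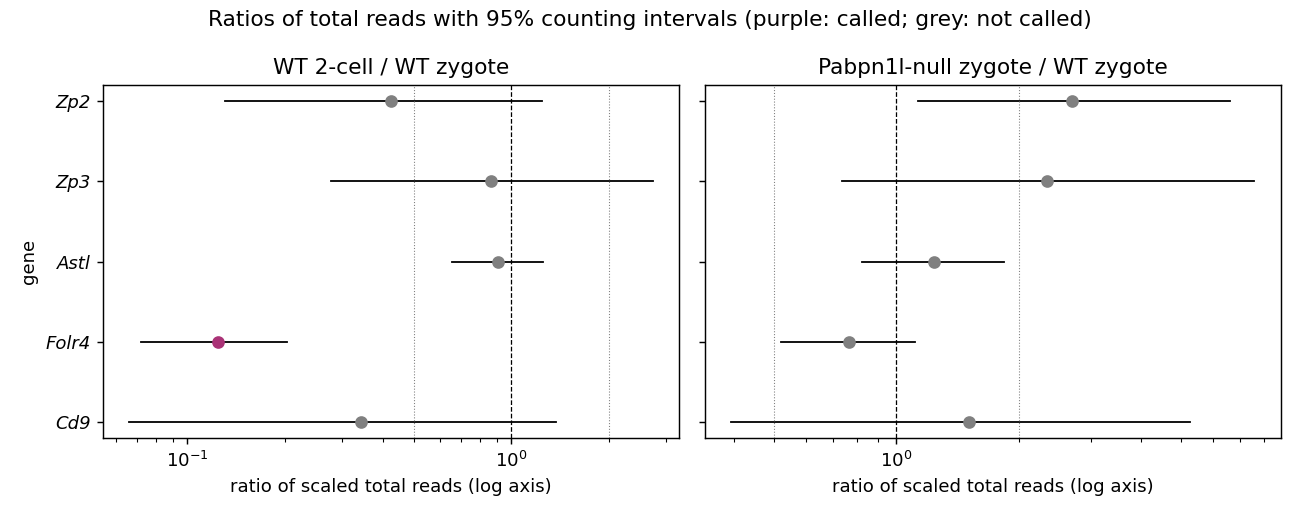
Ratios of scaled total reads on a log axis for 5 genes, without Zp1 and Cd81 for their low counts, in WT 2-cell embryos (left) and Pabpn1l-null zygotes (right) against wild-type zygotes. Points are ratios, purple where called and grey where not, lines are 95% counting intervals, the dashed line marks no difference and dotted lines a 2-fold difference. Only Folr4 at the 2-cell stage (0.124) is called, and Zp2 and Zp3 lie beyond 2-fold in null zygotes with intervals that reach below it.

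**Figure D4:**
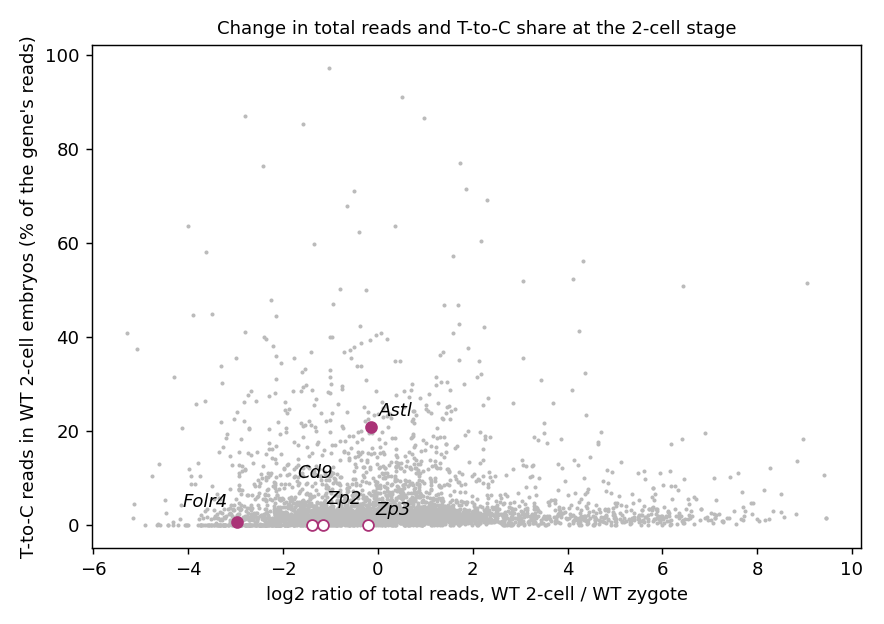
T-to-C share in WT 2-cell embryos, in percent of a gene's reads, against the log2 ratio of total reads in 2-cell embryos to wild-type zygotes. Grey points are 4125 genes with at least 200 reads in either WT column and at least 20 in 2-cell embryos. Filled purple points are Astl and Folr4, which have that depth, and open ones are members with fewer reads. Astl (log2 ratio -0.14, share 21.0%) lies above most genes of like ratio, and Folr4 (-2.98, 0.763%) at the lower left.

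Genes with the most similar pair of log2 ratios of total reads, in null zygotes and in 2-cell embryos, were sought among genes with at least 200 reads and a WT zygote count within 2-fold. For Folr4 (-0.38 and -2.98) these were Lipt1, Zc3h6 and Ctbp2, at distances of 0.115, 0.117 and 0.157 among 1144 candidates. Lipt1 had 824, 285 and 122 reads. For Zp2 (1.38 and -1.16) they were Bscl2, Ptprj and Ano10, at 0.040, 0.118 and 0.154 among 1414. For Astl (0.30 and -0.14) they were Atp1b3, Zbtb39 and Psmd5, at 0.021, 0.029 and 0.043 among 1575. Their T-to-C shares in 2-cell embryos, 0.478%, 2.54% and 0.302% of their reads, stand beside the 21.0% of Astl as a description, since few genes have a share as high as Astl. The distances rest on 3 columns only.

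Among transcription factors of oocytes and their partners that are linked to zona genes, 2 of 9 tested were called higher and 2 lower in 2-cell embryos, and 0 were called in null zygotes. Over all 11262 genes, 16.4% were called higher and 15.9% lower in 2-cell embryos, 0.684% higher and 0.675% lower in null zygotes. Nobox, an oocyte homeobox gene, had 465, 257 and 72 reads in wild-type zygotes, null zygotes and 2-cell embryos (2-cell ratio 0.12, 0.0554 to 0.232), and Lhx8, a LIM homeobox gene, 297, 83 and 127 (0.330, 0.179 to 0.584). Higher were Taf4b, a TFIID subunit gene, with 128, 36 and 393 reads (2.37, 1.38 to 4.27), and Tcf12, an E-protein gene, with 49, 0 and 198 (3.12, 1.33 to 8.45). Figla, named after its values were seen, had 11, 0 and 0 reads, under the 21 reads that a count of 0 allows. The median log2 ratio of the list was 1.08 in 2-cell embryos, or 0 with genes at 0 set to their bound, and -0.04 in null zygotes, beside medians of 0.04 and -0.15 over all genes tested.

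Of 17 genes of cortical granules and their release, which include Astl, 1 was higher and 7 lower in total reads of 2-cell embryos, beside 16.4% and 15.9% of all genes, with a median of -0.24 beside 0.04. The fusion ATPase gene Nsf fell from 1440 to 153 reads (0.0820, 0.0502 to 0.128), and Syt7, a calcium sensor of exocytosis, from 416 to 193 (0.358, 0.219 to 0.572). Plat, which encodes tissue plasminogen activator, had 616 reads in wild-type zygotes, 562 in null zygotes and 185 at the 2-cell stage. It was lower in 2-cell embryos (0.232, 0.144 to 0.362) and, alone of the list, higher in null zygotes (2.06, 1.51 to 2.83). There 0.684% of all genes were higher, and the median of the list was 0.27 beside -0.15 over all genes. In T-to-C reads of 2-cell embryos Astl alone was called among 9 genes tested, where 5.74% of all genes tested were called.

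Among 11 tested tetraspanins, which include Cd9, 0 were called higher and 5 lower in 2-cell embryos, where 15.9% of all genes were lower. Their median log2 ratio was -1.59, beside 0.04 over all genes. Tspan14 fell from 1844 to 222 reads (0.0929, 0.0622 to 0.135) and its T-to-C reads from 122 to 15 (0.0949, 0.0118 to 0.384). Tspan9 (0.329, 0.224 to 0.475) and Tspan33 (0.341, 0.144 to 0.752) were lower as well. In null zygotes Tspan5 alone was called higher, with 326 reads in each zygote column (2.26, 1.47 to 3.47), where 0.684% of all genes were higher. The median there was 0.09, beside -0.15 over all genes.

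Of 11 genes of tetraspanin partners and egg integrins, 2 were called higher and 3 lower in 2-cell embryos, where 32.4% of all genes were called, and 0 in null zygotes. The medians were -0.24 and 0.20, beside 0.04 and -0.15 over all genes. Lower were Itgb1, the beta-1 integrin gene, with 117 and 9 reads (0.0594, 0.00283 to 0.323), its partner Itga6 (0.379, 0.262 to 0.541) and Rdx, which links the membrane to actin (0.441, 0.393 to 0.495). The null-to-WT ratio of Rdx, from 5662 and 1366 reads, was 0.546 (0.465 to 0.639), below the 2-fold difference that a call needs. Epcam, an adhesion molecule gene, had 0 reads in both zygote columns and 134 in 2-cell embryos. It passed the filter of 20 reads only through 2-cell embryos, which favours a higher value there. The lower end of its 2-cell-to-WT ratio was 3.63, and a count of 0 sets no upper end.

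Of 21 genes that make or attach the GPI anchor of JUNO, 0 were called higher and 3 lower in 2-cell embryos, beside 16.4% and 15.9% of all genes. The median was -0.68 (-0.62 with genes at 0 at their bound), beside 0.04 over all genes. Pigc (0.181, 0.0998 to 0.311), Pigf (0.408, 0.208 to 0.769) and Pigy (98 and 4 reads, upper end 0.309) were lower. Pigy passed the filter of 20 reads only through wild-type zygotes, which favours a lower value elsewhere. In null zygotes Pigm alone was called higher (2.74, 1.67 to 4.54), where 0.684% of all genes were higher. The median there was 0.20, beside -0.15 over all genes. Folr1, the folate receptor alpha gene and a relative of Folr4, had 1 read in wild-type zygotes, 0 in null zygotes and 176 at the 2-cell stage. It was called higher there, in the opposite direction to Folr4, where 16.4% of all genes were called higher. Folr1 passed the filter of 20 reads only through 2-cell embryos, its highest column, which favours a higher value there. The lower end of its ratio was 4.51, and 1 read sets no useful upper end. None of its reads was a T-to-C read. The sperm-side partners, such as Izumo1, were nearly absent. The 22 genes of this list in the table summed to 62 reads in wild-type zygotes, 22 in null zygotes and 62 at the 2-cell stage, and of the 2 tested, Spam1 (29, 8 and 12 reads) and Spesp1 (9, 0 and 30), 0 were called.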

How the data were processed

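Total RNA depleted of ribosomal RNA was alkylated with iodoacetamide and sequenced, per the labels' protocols. The deposited table holds raw read counts per row, in total and for reads carrying T-to-C mismatches, made by the authors, and a text call of Positive or Negative with no stated rule. The genome build was mm10, per the submitters' processing notes. Aligner, counting tool, annotation, strand, duplicate handling and pooling of the samples of a group are likewise not given. Of 30493 rows, 47 with a date as name were left out, and of several rows for a gene the deepest was used. Counts were scaled by TMM factors (0.997, 1.04 and 0.964 for wild-type zygotes, null zygotes and 2-cell embryos) from edgeR 4.0.16, computed on genes with at least 20 reads.

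Ratios were tested by the exact conditional binomial test and shares by Fisher's exact test (scipy 1.17.1), two-sided, on reads divided by 7, with Benjamini-Hochberg adjustment over all genes with at least 20 reads (T-to-C reads 10, shares 20 in both columns). The planned tests on replicates could not be run. The 7 reads per molecule follow from genes at 0 in the null column (6.79 to 8.25 in 4 ranges of level), if those zeros are chance. The same estimate in the WT columns was 3.72 to 11.5. Log2 ratios add 0.5 molecule scaled to column size. Intervals are exact 95% intervals, also for molecule numbers that are not whole. The tests were checked on simulated counts with known answers. These had 7 reads per molecule, as the tests assume, and no spread between libraries, so the check does not cover other settings. Named genes of a list are up to 4 called genes with the most reads, or the 2 with the most reads. The members and lists were chosen with earlier results of these data known. All 7 members matched RefSeq on GRCm38, Folr4 as a synonym of Izumo1r. Alternatives were RLE factors, column totals, filters, reads per molecule, summed rows and edgeR's exact test, with T-to-C reads scaled by their own total added after the data were seen. No unmapped columns were found. Transcript lengths were not used, so levels are not compared between genes.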

Additional observations from a re-analysis of the deposited data

Results flagged for a closer look

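Folr4 has a further row in the table that enters no comparison. It held 29 reads in wild-type zygotes, above the 21 that a count of 0 was taken to allow, 3 in null zygotes and 1 at the 2-cell stage, beside 817, 277 and 131 in the row used. None of these was a T-to-C read. The table does not say what separates the rows, and the cause was not tested.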

How the results depend on the processing

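No paired analysis was possible because the table has 1 column pair per group and carries no replicate numbers, and for the same reason no replicate could be left out. Of the 6 members tested, 1 was called in total reads of 2-cell embryos against wild-type zygotes, where 32.4% of all genes tested were called. There 3 members were called (Zp2, Cd9 and Folr4) both with 1 read per molecule in every column and with 7 reads per molecule in the null column alone. In null against wild-type zygotes 0 were called in total reads, and 3 with 1 read per molecule. In T-to-C reads of 2-cell embryos 1 of the 2 members tested was called, Astl. There 0 were called with no filter, with at least 20 T-to-C reads in 2 columns (which leaves Astl out) and with T-to-C reads scaled by their own total, and 2 (Astl and Folr4) with 1 read per molecule, with 7 in the null column alone and with edgeR's exact test. Counts of these genes for the T-to-C share and for T-to-C reads in null zygotes kept their value. With RLE factors the 2-cell ratios of Zp3 (1.04) and Astl (1.09) in total reads were above 1.

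Over all genes, the part of calls that were higher in 2-cell embryos was 50.7% in total reads, 61.4% with RLE factors, 34.1% with at least 50 reads in 2 columns and 58.5% with edgeR's exact test. In T-to-C reads it was 72.9%, and 48.7% when scaled by their own total. With 1 read per molecule 6662 genes were called in total reads of 2-cell embryos, against 3644, and 2162 against 251 in T-to-C reads. The number in null zygotes was 153 in total reads, 2684 with 1 read per molecule, 318 with 7 in the null column alone and 13 with edgeR's exact test. In T-to-C reads it was 2, then 786, 9 and 1, and edgeR's exact test called 938 in T-to-C reads of 2-cell embryos. For the T-to-C share, 1 read per molecule gave 1009 genes in 2-cell embryos, against 131, and 734 in null zygotes, against 0. Depth limits the T-to-C share: in 2-cell embryos a count of 0 allows up to 87.5% for Cd9, 48.8% for Zp2 and 36.8% for Zp3.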
